A study of Mus musculus with 40 samples.

Results

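The collagen genes expressed in subcutaneous fat of mice (sWAT, for subcutaneous white adipose tissue) are described. They are the symbols of the form Col, a number, a and a number whose mean over 40 libraries was at least 1 CPM (counts scaled so that every library has the same total). Among 34843 symbols in the counts, 44 were collagen symbols and 26 of these met the threshold. The 8 fibrillar members are Col1a1, Col1a2, Col3a1, Col5a1, Col5a2, Col5a3, Col11a1 and Col27a1. The 5 basement membrane members are Col4a1, Col4a2, Col4a3, Col4a4 and Col4a5, and the 4 type VI members are Col6a1, Col6a2, Col6a3 and Col6a6. The 9 others are Col8a1, Col12a1, Col13a1, Col14a1, Col15a1, Col16a1, Col18a1, Col23a1 and Col28a1. Col28a1 lay just inside the threshold at 1.16 CPM, and Col6a5 just outside it at 0.984 CPM.

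The 5 groups hold 8 libraries each. They are HFD-fed mice treated with tirzepatide, HFD-fed mice treated with semaglutide, mice moved from HFD to ND (the diet switch), mice fed HFD, and mice fed ND. HFD is a high-fat diet, and the labels do not spell out ND. Semaglutide is a peptide drug acting on the GLP-1 receptor, and tirzepatide acts on the GIP receptor too. Both are incretin analogs. The labels give no strain, sex, age, dose, treatment time or feeding time. Whether mice of the diet switch had a drug earlier is not stated, although the title of the series speaks of one given before a dietary intervention. The study asked which genes the incretin analogs bring back and which they leave altered.

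Collagens are secreted or membrane-bound proteins built from chains wound into a triple helix, and they are the main proteins of the extracellular matrix. Fibrillar collagens form the cables that give tissue its tensile strength, and type IV collagen forms the sheet of the basement membrane that surrounds each fat cell and each capillary. Type VI collagen forms beaded filaments around cells. In fat, collagen chains are made mostly by fibroblasts and adipocyte progenitors, and in part by vascular cells and adipocytes, and the matrix is remodelled as fat cells grow and shrink.

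The libraries were made with a kit that counts the 3′ ends of transcripts. They held 2115471 to 7445548 counts (median 3765319.5), with 19900 to 23774 genes detected. Adipocyte markers were high in every group, with 8131 to 22444 summed CPM over 6 genes, while markers of mammary or other epithelium and of mesothelium reached at most 5.98 and 6.34 summed CPM, and keratinocyte markers 52.2 in tirzepatide 4 and at most 16.2 elsewhere. B cell markers were high in 4 libraries, at 526, 284.9 and 314 summed CPM in semaglutide 1, 3 and 8 and 519 in ND 5, against at most 16.4 in the other 36. The summed CPM of 10 skeletal muscle markers had medians of 998 with tirzepatide (23.4 to 3135), 52.1 with semaglutide (16.9 to 428), 166 after the diet switch (44.9 to 3866), 88.2 on HFD (38.1 to 1038) and 217 on ND (91.8 to 4448). On the leading axis of a principal component analysis of within-group differences the diet-switch libraries spread furthest, with diet switch 1 and 2 at one end and diet switch 3 and 4 at the other, where HFD 3 and diet switch 7 came next. Values are also given without diet switch 3, 4 and 7, and, added after seeing the data, without diet switch 1 and 2. HFD 3 was kept in both of these fits, though it lay further out than diet switch 7 (35.9 against 35.1 on the axis). The share of counts from 18S RNA was 4.74 ± 0.993% after the diet switch, 7.52 ± 1.00% on HFD and 7.41 ± 0.929% on ND (SD, n = 8 each), and its part in the diet-switch results was not tested. The labels do not say whether libraries of a group come from separate animals, so the p-values reflect only how far these samples scatter, which may be technical.

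Several members lie next to each other in the genome (coordinates of GENCODE M21, build GRCm38). Col4a1 (chr8:11198423-11312826, minus strand) and Col4a2 (chr8:11312805-11449287, plus strand) face away from each other, and their annotated 5′ ends overlap by 22 bases. Col4a4 and Col4a3 are arranged likewise on chromosome 1, 71 bases apart. Col3a1 (chr1:45311538-45349706, plus strand) and Col5a2 (chr1:45374321-45503282, minus strand) point toward each other across 24614 bases. Col6a2 (chr10:76595762-76623630) and Col6a1 (chr10:76708792-76726168) follow each other on the minus strand, 85161 bases apart.

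RefSeq promoters (build GRCm38.p6, 250 bases before to 50 after the start) were at hand for 21 of the 26 members. Shown are those of the divergent pair Col4a1 and Col4a2, because no library of either drug overlapped HFD for either gene, and of Col1a2, a chain that was higher after the diet switch than on HFD and on ND. How many of all genes separate from HFD without overlap is not given, here and below, so separation alone sets no gene apart. Capitals mark CCAAT and GGGCGG on either strand (ATTGG and CCGCCC on the other).
Col4a1 promoter, chr8:11312777-11313076, minus strand: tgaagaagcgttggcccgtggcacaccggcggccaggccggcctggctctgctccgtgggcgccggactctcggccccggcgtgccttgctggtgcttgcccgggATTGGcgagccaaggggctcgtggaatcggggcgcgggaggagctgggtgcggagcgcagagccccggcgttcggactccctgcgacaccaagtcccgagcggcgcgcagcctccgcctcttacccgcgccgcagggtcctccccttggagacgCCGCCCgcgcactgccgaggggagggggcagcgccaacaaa
Col4a2 promoter, chr8:11312555-11312854, plus strand: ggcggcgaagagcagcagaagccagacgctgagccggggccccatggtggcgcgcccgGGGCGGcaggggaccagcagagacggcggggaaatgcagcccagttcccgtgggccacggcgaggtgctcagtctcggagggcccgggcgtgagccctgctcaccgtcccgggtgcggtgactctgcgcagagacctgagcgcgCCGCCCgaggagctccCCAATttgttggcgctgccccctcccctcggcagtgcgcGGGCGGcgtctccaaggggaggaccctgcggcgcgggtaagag
Col1a2 promoter, chr6:4505368-4505667, plus strand: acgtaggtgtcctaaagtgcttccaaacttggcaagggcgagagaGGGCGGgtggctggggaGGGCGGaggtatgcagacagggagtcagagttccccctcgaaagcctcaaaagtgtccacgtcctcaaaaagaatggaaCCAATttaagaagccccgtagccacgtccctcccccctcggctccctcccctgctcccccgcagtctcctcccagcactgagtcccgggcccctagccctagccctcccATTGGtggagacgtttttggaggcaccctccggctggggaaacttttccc
The Col4a1 and Col4a2 windows share 78 bases, chr8:11312777-11312854. CCAAT occurred in the promoters of 8 of the 21 members and in 37.4% of 32851 mouse promoters, and GGGCGG in 14 of the 21 and in 35.7% of all. TATAAA occurred in 2 (Col3a1 and Col13a1) and in 13.6% of all. No match overlapped another in the 3 promoters shown, and a match describes the letters in the window only.

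Basement membrane collagens took less of the tirzepatide libraries than of the HFD libraries, and the other collagens less of all 3 treated groups, while the collagens as a whole overlapped between all groups. The 26 members held a median of 0.773% with tirzepatide (0.548 to 0.973), 0.707% with semaglutide (0.404 to 0.922), 0.998% after the diet switch (0.610 to 1.99), 0.916% on HFD (0.718 to 1.05), and 0.865% on ND (0.487 to 1.07) of all counts. Basement membrane collagens held 0.0788% with tirzepatide (0.0712 to 0.0922), 0.0956% with semaglutide (0.0588 to 0.129), 0.120% after the diet switch (0.0976 to 0.144), 0.161% on HFD (0.125 to 0.167), and 0.126% on ND (0.0620 to 0.160). The 8 tirzepatide libraries all lay below the 8 HFD libraries for this class, while the groups overlapped for the whole set. For the 9 other collagens every library of the tirzepatide, semaglutide and diet-switch groups lay below every HFD library. Fibrillar collagens held 0.531% with tirzepatide (0.365 to 0.724), 0.469% with semaglutide (0.251 to 0.675), 0.749% after the diet switch (0.424 to 1.71), 0.533% on HFD (0.383 to 0.672), and 0.570% on ND (0.354 to 0.731). Diet switch 5 had the highest collagen share of the 40 libraries, at 1.99%. Type VI collagens held 0.0793% with tirzepatide (0.0622 to 0.138), 0.110% with semaglutide (0.0672 to 0.136), 0.109% after the diet switch (0.0543 to 0.154), 0.145% on HFD (0.0956 to 0.195), and 0.123% on ND (0.0523 to 0.157). The other collagens held 0.0326% with tirzepatide (0.0239 to 0.0407), 0.0376% with semaglutide (0.0270 to 0.0471), 0.0344% after the diet switch (0.0210 to 0.0458), 0.0562% on HFD (0.0492 to 0.0695), and 0.0410% on ND (0.0193 to 0.0576). The shares of these classes rest mostly on a few genes. On HFD the mean was 923 CPM for Col4a1 and 687 for Col4a2, against 11.5 for Col4a4, 3.16 for Col4a5 and 2.10 for Col4a3. Among the other collagens Col15a1 had a mean of 301 CPM on HFD, Col18a1 140 and Col14a1 94.8, and the rest at most 33.8. The shares count transcript ends and are given as a description, with no test.

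**Figure D1:**
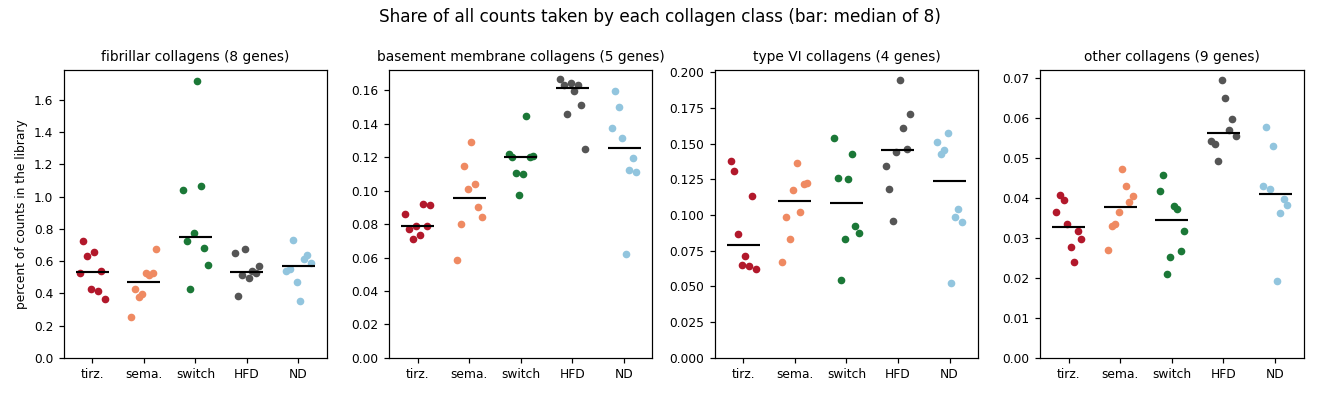
Percent of all counts in each of the 40 libraries (y axis, from 0) that fell on the fibrillar, basement membrane, type VI and other collagens, by group (x axis), with each point a library and each bar the median of 8. Basement membrane collagens had medians of 0.0788% with tirzepatide, 0.0956% with semaglutide, 0.120% after the diet switch, 0.161% on HFD and 0.126% on ND.

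Of the 26 members 25 entered the test across all genes, and Col28a1 did not pass the filter on low counts. In the test for any difference over the 5 groups 15 of 25 passed an adjusted p of 0.05, against 33.5% of the 15807 genes tested. These were 6 of 8 fibrillar (Col1a2, Col3a1, Col5a1, Col5a2, Col5a3, Col27a1), 2 of 5 basement membrane (Col4a1, Col4a2), 3 of 4 type VI (Col6a1, Col6a2, Col6a3) and 4 of 8 other members (Col12a1, Col15a1, Col16a1, Col18a1). Col1a1 did not pass (adjusted p = 0.120), nor did Col8a1 (0.0514), Col14a1 (0.0818), Col4a3, Col4a4, Col4a5, Col6a6, Col11a1, Col13a1 and Col23a1.

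Relative to HFD more collagen genes were lower than higher with both drugs, and after the diet switch too when all its libraries were used, and a single member passed between HFD and ND. With tirzepatide 11 members were lower and 1 higher than on HFD, where 10.7% of all genes tested were lower and 9.79% higher. With semaglutide 5 were lower and 0 higher, against 2.62% and 1.51% of all genes. At an unadjusted p under 0.05 edgeR gave 12 lower and 0 higher with semaglutide, and DESeq2 and limma-voom also called 0 higher. The share of all genes at an unadjusted p, by these other tools, or in fits of fewer libraries is not given, here and below. Such counts of members alone are therefore no result about collagens. After the diet switch 9 were lower and 2 higher, against 10.9% and 12.8% of all genes. Without diet switch 3, 4 and 7 this was 2 lower (Col4a2 and Col16a1) and 2 higher (Col1a2 and Col27a1), and without diet switch 1 and 2 it was 9 lower and 3 higher. On HFD against ND 1 member was higher and 0 lower, against 2.83% and 1.68%, with 5 higher and 2 lower at an unadjusted p under 0.05, and DESeq2 called 0 lower and limma-voom 1. The median log2 fold change of the 25 members was -0.56 with tirzepatide, -0.46 with semaglutide and -0.16 after the diet switch, all relative to HFD, against 0.03, 0.05 and 0.03 over all genes tested. For HFD against ND it was 0.17, against -0.04 over all genes. The 3 comparisons against HFD share the 8 HFD libraries.

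**Figure D2:**
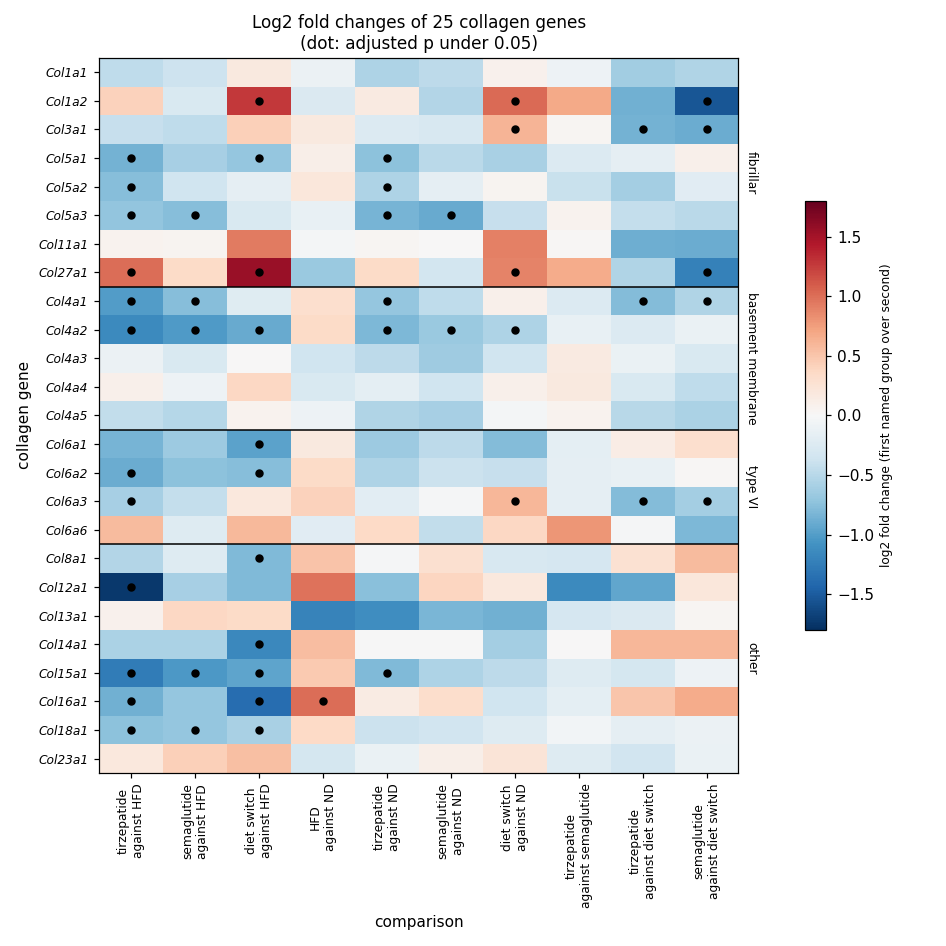
Log2 fold changes of the 25 tested collagen genes (rows, by class) in the 10 comparisons (columns), with colour from blue (lower in the first named group) to red (higher) and a dot where the adjusted p was under 0.05. The column for tirzepatide against HFD holds 12 dots, that for semaglutide 5, that for the diet switch 11 and that for HFD against ND 1.

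Against ND, fewer members passed than against HFD, as did fewer of all genes tested. With tirzepatide 6 were lower and 0 higher than on ND, against 5.77% and 4.30% of all genes, with 11 lower and 0 higher by edgeR at an unadjusted p under 0.05. With semaglutide 2 were lower and 0 higher, against 1.73% and 0.905%, with 5 lower and 0 higher by edgeR at an unadjusted p under 0.05. DESeq2 and limma-voom called 0 members higher with either drug than on ND. After the diet switch 4 were higher and 1 lower, against 7.96% and 6.81%. These 3 comparisons share the 8 ND libraries. ND 5, a library with high B cell markers, was the lowest ND library by a wide gap for 8 members, named in the closing section. Without ND 5, 4 members were called with semaglutide and 9 after the diet switch, in place of 2 and 5, and 8 with tirzepatide in place of 6. Without the 4 libraries with high B cell markers the diet-switch count against ND was also 9, as Col5a1, Col5a3, Col6a1 and Col15a1 were called lower too. It was 8 without diet switch 1 and 2, where Col5a1, Col6a1 and Col16a1 were called lower too, and 1 without diet switch 3, 4 and 7 (Col1a2). As the share of all genes called in these fits is not given, their counts alone are no result about collagens.

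The pair that builds the common basement membrane network, Col4a1 and Col4a2, was lower with both drugs than on HFD, and Col4a2 alone of the pair passed after the diet switch. Triplets of CPM below are the lowest, median and highest of 8 libraries, scaled by the TMM factors. Col4a1 had 344, 432 and 645 CPM with tirzepatide, 339.9, 529.5 and 737 with semaglutide, 610.1, 783 and 949 after the diet switch, 788, 938 and 989 on HFD, and 354, 773 and 907 on ND. Col4a2 had 204, 292 and 489 CPM with tirzepatide, 201, 329 and 459 with semaglutide, 296, 366 and 441 after the diet switch, 569, 681 and 821 on HFD, and 219, 568 and 709 on ND. For both genes every tirzepatide and every semaglutide library lay below every HFD library, and for Col4a2 every diet-switch library did so too. The 3′ end of Col4a1 is overlapped by Gm15418, so with counting of unstated strandedness its counts may include that gene. In bulk tissue, fewer cells that make a transcript and less of it per cell cannot be told apart.

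Relative to HFD, the Col4a1 log2 fold change was -1.004 ± 0.16 (adjusted p = 1.05e-05) with tirzepatide. With semaglutide it was -0.76 ± 0.16 (adjusted p = 0.00189). After the diet switch it was -0.22 ± 0.16 (adjusted p = 0.311), short of the threshold (95% interval -0.54 to 0.09). Col4a2 was -1.15 ± 0.17 (adjusted p = 4.93e-06) with tirzepatide, -1.02 ± 0.17 (adjusted p = 1.62e-04) with semaglutide, and -0.90 ± 0.17 (adjusted p = 1.79e-04) after the diet switch. On HFD against ND the pair had positive log2 fold changes of 0.31 ± 0.16 and 0.34 ± 0.17 that did not pass (adjusted p = 0.308 and 0.297). Against ND, both were lower with tirzepatide (-0.70 and -0.81, adjusted p = 0.00330 and 0.00181). Against ND, Col4a2 was also lower with semaglutide (-0.67, adjusted p = 0.0203) and after the diet switch (-0.56, adjusted p = 0.0230). The semaglutide call against ND ended when ND 1, 2 or 4 was left out (adjusted p 0.0551 to 0.0581), and the diet-switch call when ND 1, 2, 3 or 4 or diet switch 4 was (0.0508 to 0.0589). Without the 11 libraries with high muscle markers Col4a1 no longer passed with tirzepatide against ND (-0.51, adjusted p = 0.273), nor Col4a2 after the diet switch (-0.63, adjusted p = 0.0606). The fit without these libraries also rests on fewer samples. Whether muscle content or the smaller number ended a call in it was not tested, here and below. With the GC trend of each library removed Col4a2 did not pass against ND with semaglutide (-0.52, 0.0585) or after the diet switch (-0.28, 0.246).

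The 3 chains of the other type IV network, which is known best from the kidney filter, did not pass in any of the 10 comparisons by edgeR. Col4a4 had 6.32, 12.2 and 25.6 CPM with tirzepatide, 4.47, 10.7 and 16.4 with semaglutide, 6.31, 13.4 and 26.3 after the diet switch, 6.06, 11.4 and 18.8 on HFD, and 4.22, 13.1 and 25.2 on ND. Col4a3 had 0.550, 1.73 and 3.73 CPM with tirzepatide, 0.525, 1.26 and 3.97 with semaglutide, 0.848, 1.34 and 4.55 after the diet switch, 0.699, 1.83 and 5.20 on HFD, and 0.383, 2.15 and 7.02 on ND, and its 3′ end is overlapped by another gene. Col4a5 had 0, 1.96 and 6.94 CPM with tirzepatide, 0.678, 2.47 and 3.68 with semaglutide, 0.565, 3.30 and 6.59 after the diet switch, 0.932, 3.28 and 5.69 on HFD, and 2.29, 2.55 and 7.02 on ND. The groups overlapped widely for all 3 genes.

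**Figure D3:**
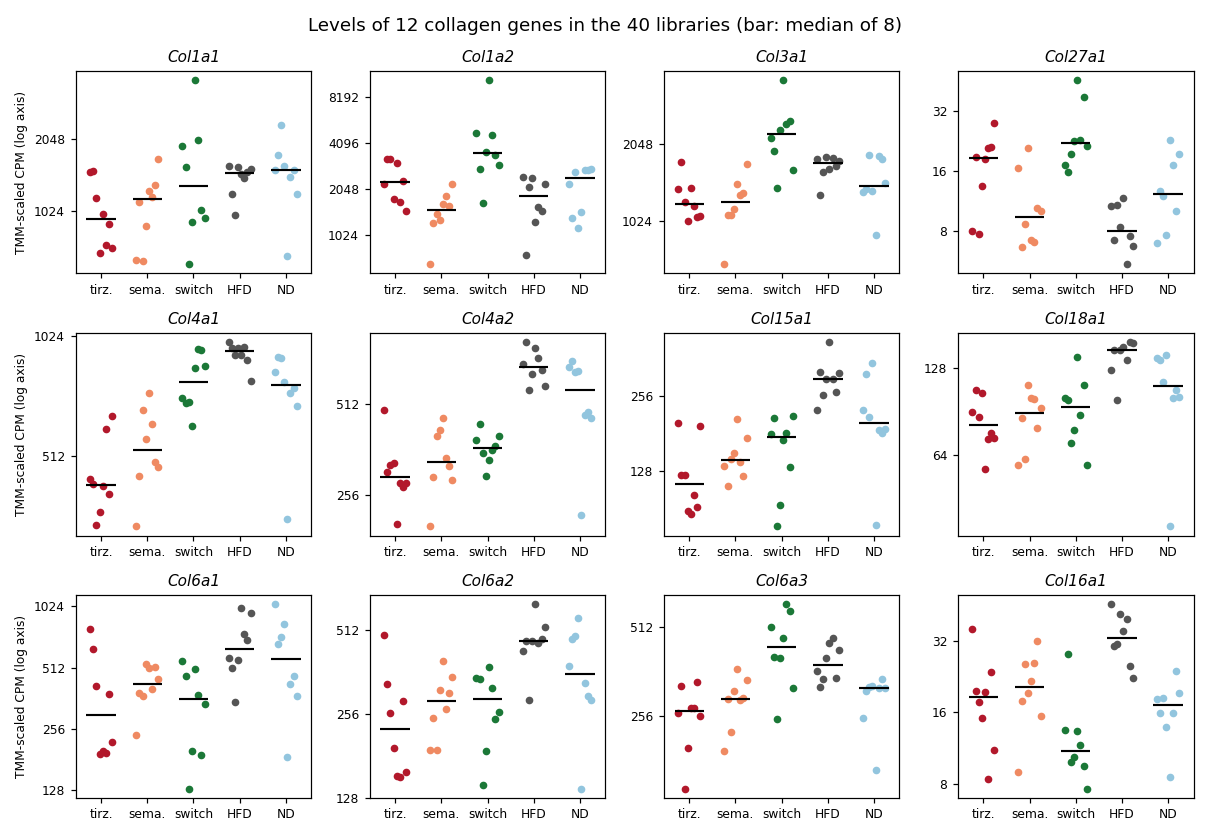
TMM-scaled CPM of 12 collagen genes in the 40 libraries (y axes, logarithmic), by group (x axes: tirzepatide, semaglutide, diet switch, HFD, ND), with each point a library and each bar the median of 8. Col4a2 medians were 292 with tirzepatide, 329 with semaglutide, 366 after the diet switch, 681 on HFD and 568 on ND, and Col1a2 reached 10604 CPM in diet switch 5.

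Col15a1 and Col18a1, the collagens that link basement membranes to the matrix around them, were lower than on HFD in the same 3 groups as Col4a2. Col18a1 is the precursor of the fragment endostatin. Col15a1 had 85.1, 113 and 199 CPM with tirzepatide, 111, 141 and 207 with semaglutide, 76.0, 175 and 214 after the diet switch, 225, 301 and 424 on HFD, and 77.3, 199.5 and 350.3 on ND. Every library of the 3 treated groups lay below every HFD library for Col15a1. Its log2 fold change relative to HFD was -1.27 ± 0.22 (adjusted p = 5.20e-05) with tirzepatide, -1.03 ± 0.22 (adjusted p = 0.00232) with semaglutide, and -0.94 ± 0.22 (adjusted p = 0.00148) after the diet switch. It was also lower with tirzepatide than on ND (-0.79 ± 0.22, adjusted p = 0.0159), a call that ended without ND 4 (adjusted p = 0.0547) and without the muscle-high libraries (0.227). The diet-switch call ended without diet switch 3, 4 and 7 (-0.66, adjusted p = 0.0659).

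Col18a1 had 57.5, 81.2 and 107 CPM with tirzepatide, 59.4, 89.4 and 112 with semaglutide, 59.1, 93.7 and 139 after the diet switch, 99.5, 147 and 157 on HFD, and 36.4, 111 and 142 on ND. All libraries of the 3 treated groups lay below the HFD median, though their ranges overlapped HFD. The log2 fold change relative to HFD was -0.74 ± 0.18 (adjusted p = 0.00263) with tirzepatide, -0.69 ± 0.18 (adjusted p = 0.0172) with semaglutide, and -0.58 ± 0.18 (adjusted p = 0.0150) after the diet switch. The diet-switch call ended without the muscle-high libraries (-0.51, adjusted p = 0.121), without diet switch 3, 4 and 7 (-0.53, 0.116) and once the GC trend of each library was removed (-0.31, 0.173). Without the muscle-high libraries the tirzepatide value was -0.84 with an adjusted p of 0.0573, a fold no smaller than with them. The 3′ end of Col18a1 is overlapped by Slc19a1, and whether the counting used strand is not given in the sources used here.

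Among the collagens that sit on the surface of fibrils, Col16a1 was higher on HFD than on ND and lower than on HFD with tirzepatide and after the diet switch. Col16a1 had 8.39, 18.6 and 35.8 CPM with tirzepatide, 8.93, 20.4 and 31.9 with semaglutide, 7.63, 10.999 and 28.2 after the diet switch, 22.2, 32.9 and 45.5 on HFD, and 8.53, 17.1 and 23.8 on ND. All 8 HFD libraries lay above the ND median. The log2 fold change was 1.01 ± 0.24 (adjusted p = 0.00644) on HFD against ND. Relative to HFD it was -0.87 ± 0.24 (adjusted p = 0.00838) with tirzepatide and -1.37 ± 0.25 (adjusted p = 7.46e-05) after the diet switch. With semaglutide it was -0.70 ± 0.24 (adjusted p = 0.0831), short of the threshold. Against ND none of the 3 treated groups passed for Col16a1 (0.14 with tirzepatide, 0.31 with semaglutide and -0.36 after the diet switch).

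Col12a1 and Col14a1, the other fibril-associated members, each passed in a single comparison. Col12a1 had 0, 1.88 and 4.85 CPM with tirzepatide, 1.72, 3.51 and 9.92 with semaglutide, 1.75, 3.67 and 7.05 after the diet switch, 3.73, 6.77 and 10.5 on HFD, and 1.56, 3.50 and 5.25 on ND, and was lower with tirzepatide than on HFD (-1.74 ± 0.43, adjusted p = 0.00344). Its level was low, with 68 counts in all 8 tirzepatide libraries. Col14a1 had 13.1, 62.7 and 115 CPM with tirzepatide, 28.4, 69.9 and 96.4 with semaglutide, 18.6, 35.7 and 73.0 after the diet switch, 53.6, 81.3 and 161 on HFD, and 36.4, 65.3 and 91.8 on ND. It was lower after the diet switch than on HFD (-1.17 ± 0.34, adjusted p = 0.0124), a call that ended without diet switch 3, 4 and 7 (-0.93, adjusted p = 0.156) and without the muscle-high libraries (-0.98, 0.139).

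Col8a1, a short-chain collagen of vessel walls, also passed in a single comparison. Col8a1 had 8.39, 17.3 and 23.3 CPM with tirzepatide, 9.19, 21.8 and 32.3 with semaglutide, 6.12, 11.7 and 24.02 after the diet switch, 17.6, 23.97 and 29.8 on HFD, and 11.9, 15.3 and 23.2 on ND. It was lower after the diet switch than on HFD (-0.80 ± 0.24, adjusted p = 0.0128), and not without diet switch 3, 4 and 7 (-0.52, adjusted p = 0.226) or the muscle-high libraries (-0.79, 0.0546). The membrane-spanning collagens Col13a1 and Col23a1 did not pass in any comparison by edgeR with all libraries, with group medians of 0.406 to 2.65 and 4.40 to 6.09 CPM. Col13a1 was lower on HFD than on ND by limma-voom (-2.07, adjusted p = 0.0135) and without the muscle-high libraries (-2.18, 0.0475). Col28a1 had group medians of 0.802 to 1.35 CPM and was not tested.

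Of the major fibrillar chains, Col1a2 was higher after the diet switch than on HFD and on ND, and Col3a1 was higher after it than on ND. Col1a1 passed in no comparison of the main edgeR fit. Col1a1 and Col1a2 encode both chains of type I collagen, the main fibril of most tissues. Col1a2 had 1475, 2261 and 3236 CPM with tirzepatide, 657, 1488 and 2223 with semaglutide, 1659.8, 3498 and 10604 after the diet switch, 755, 1833 and 2467 on HFD, and 1131, 2426 and 2787 on ND. Col1a1 had 680.2, 949.8 and 1507 CPM with tirzepatide, 629.9, 1145 and 1699 with semaglutide, 612, 1303 and 3629.7 after the diet switch, 984, 1478 and 1582 on HFD, and 666, 1524 and 2349.8 on ND. Diet switch 5 held the highest value for both genes. Groups overlapped for both genes, with 7 of 8 diet-switch libraries above the HFD median for Col1a2.

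Col1a2 was higher after the diet switch than on HFD (1.27 ± 0.28, adjusted p = 8.22e-04) and than on ND (1.01 ± 0.27, adjusted p = 0.0109). Without diet switch 5 it was 0.93 against HFD (adjusted p = 0.00542) and 0.67 against ND (adjusted p = 0.0577). With the drugs it did not pass relative to HFD (0.41 ± 0.27 with tirzepatide and -0.27 ± 0.27 with semaglutide). Col1a1 passed in none of the 10 comparisons of the main edgeR fit, and limma-voom called it lower with tirzepatide than on ND (-0.63, adjusted p = 0.0459). With the GC trend removed, edgeR called it lower with semaglutide than after the diet switch (-0.67, adjusted p = 0.0415). Without diet switch 3, 4 and 7 it was lower than after the diet switch with semaglutide (-0.89, 0.0482) and with tirzepatide (-0.98, 0.0244). Its log2 fold change relative to HFD was -0.46 ± 0.25 with tirzepatide, -0.37 ± 0.25 with semaglutide and 0.18 ± 0.25 after the diet switch (95% interval -0.34 to 0.69).

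Type III collagen, the thin fibril that co-assembles with type I, is a homotrimer of the Col3a1 chain. Col3a1 had 1017, 1193 and 1746 CPM with tirzepatide, 689, 1215 and 1707 with semaglutide, 1374, 2251 and 3660.2 after the diet switch, 1293, 1722 and 1820.0 on HFD, and 897, 1403 and 1848 on ND. It was higher after the diet switch than on ND (0.61 ± 0.17, adjusted p = 0.0133). Against HFD it stood at 0.43 ± 0.17 (adjusted p = 0.0562) after the diet switch, -0.42 ± 0.17 (adjusted p = 0.0723) with tirzepatide and -0.46 ± 0.17 (adjusted p = 0.112) with semaglutide. All 3 were short of the threshold in the main edgeR fit. Limma-voom called all 3 (adjusted p = 0.00966 with tirzepatide, 0.0216 with semaglutide and 0.0426 after the diet switch), and DESeq2 called tirzepatide (0.0432) and the diet switch (0.0334). EdgeR called the diet switch higher with the GC trend removed (0.58, adjusted p = 0.0120), without diet switch 1 and 2 (0.47, 0.0436) and without the B cell-high libraries (0.42, 0.0295). It called tirzepatide lower without the B cell-high libraries (-0.43, 0.0276) and in a fit of only the groups compared (-0.41, 0.0302). Without diet switch 3, 4 and 7 the call against ND ended (0.68, adjusted p = 0.0669).

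The minor fibrillar chains of type V collagen, which start type I fibrils and limit their width, fell with tirzepatide. Col5a1 had 121, 181 and 412 CPM with tirzepatide, 158, 258 and 324 with semaglutide, 102, 229 and 340.2 after the diet switch, 226, 391 and 443 on HFD, and 134, 329.9 and 532 on ND. Col5a2 had 66.6, 87.2 and 129 CPM with tirzepatide, 68.6, 122 and 143 with semaglutide, 102, 123 and 211 after the diet switch, 122, 154 and 188 on HFD, and 69.1, 131 and 180.2 on ND. Col5a3 had 99.95, 148 and 356 CPM with tirzepatide, 117, 172 and 223 with semaglutide, 198, 238 and 329 after the diet switch, 219.9, 288 and 362 on HFD, and 119, 295 and 480.2 on ND. Every tirzepatide library lay below the HFD median for Col5a2, and 7 of 8 did for Col5a1 and Col5a3. Relative to HFD the log2 fold changes with tirzepatide were -0.85 ± 0.23 (adjusted p = 0.00813) for Col5a1, -0.76 ± 0.16 (adjusted p = 6.14e-04) for Col5a2 and -0.71 ± 0.20 (adjusted p = 0.0111) for Col5a3. Without the muscle-high libraries Col5a2 (-0.72, adjusted p = 0.0573) and Col5a3 (-0.77, 0.0905) no longer passed. Their folds stayed close to those with all libraries, while fewer libraries remained, fewest with tirzepatide. The part of muscle in these lost calls was not tested.

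Relative to ND, all 3 were lower with tirzepatide (-0.74, -0.56 and -0.84, adjusted p = 0.0355, 0.0202 and 0.00627). The Col5a1 call against ND ended in each of 10 fits that left out ND 1, 2, 3 or 4 or tirzepatide 3, 4, 5, 6, 7 or 8 (adjusted p 0.0521 to 0.0939). The Col5a2 call ended without ND 3 (0.0571) or tirzepatide 4 (0.0535), and without the muscle-high libraries neither Col5a2 (-0.51, adjusted p = 0.256) nor Col5a3 (-0.98, 0.0646) passed. Col5a3 was also lower with semaglutide, with a log2 fold change of -0.77 ± 0.20 (adjusted p = 0.0207) relative to HFD and -0.90 ± 0.20 (adjusted p = 0.00673) relative to ND. The first of these calls ended without semaglutide 1 (adjusted p = 0.0545). Col5a1 was lower after the diet switch than on HFD (-0.69 ± 0.23, adjusted p = 0.0269), a call that ended without HFD 2 or without diet switch 3, 4, 7 or 8 (0.0530 to 0.0694), and without diet switch 3, 4 and 7 together (0.291).

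Col27a1, a fibrillar collagen best known from cartilage, was higher with tirzepatide and after the diet switch than on HFD. Col27a1 had 7.77, 18.6 and 27.9 CPM with tirzepatide, 6.64, 9.40 and 20.8 with semaglutide, 15.8, 22.1 and 45.7 after the diet switch, 5.47, 7.99 and 11.8 on HFD, and 7.00, 12.3 and 23.0 on ND. Every diet-switch library lay above every HFD library. The log2 fold change relative to HFD was 1.56 ± 0.27 (adjusted p = 5.16e-05) after the diet switch, 1.01 ± 0.27 (adjusted p = 0.00629) with tirzepatide, and 0.34 ± 0.28 (adjusted p = 0.5257) with semaglutide, the last short of the threshold. Relative to ND it was 0.89 ± 0.26 (adjusted p = 0.0193) after the diet switch, a call that ended without diet switch 5 (0.71, adjusted p = 0.0622) or 7 (0.78, 0.0537). Col11a1, another minor fibrillar chain, had group medians of 0.923 to 2.08 CPM and did not pass by edgeR, while limma-voom called it higher after the diet switch than on HFD (2.02, adjusted p = 0.0181).

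Of type VI collagen, the Col6a1 and Col6a2 chains were lower than on HFD after the diet switch, and Col6a2 and Col6a3 with tirzepatide. Col6a3 is the chain whose end is cut off as the adipose signal endotrophin. Col6a1 had 193, 299 and 794 CPM with tirzepatide, 239, 426 and 533 with semaglutide, 130.0, 358 and 552 after the diet switch, 347, 635 and 1001 on HFD, and 187, 567 and 1048 on ND. Col6a2 had 152, 225 and 493 CPM with tirzepatide, 190.2, 286 and 397 with semaglutide, 142, 289.6 and 378 after the diet switch, 289, 469 and 635 on HFD, and 138, 356 and 566 on ND. Col6a3 had 145, 266 and 333 CPM with tirzepatide, 195, 293 and 369 with semaglutide, 249, 439 and 613 after the diet switch, 319.8, 383 and 469 on HFD, and 168, 319 and 341 on ND. All 8 diet-switch libraries lay below the HFD median for Col6a1 and Col6a2. For Col6a3 all 8 tirzepatide libraries lay below the HFD median.

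After the diet switch the log2 fold change relative to HFD was -0.96 ± 0.32 (adjusted p = 0.0253) for Col6a1 and -0.76 ± 0.23 (adjusted p = 0.0145) for Col6a2. It was 0.19 ± 0.17 (adjusted p = 0.444) for Col6a3, short of the threshold. The Col6a1 call ended without HFD 5 or 8 or diet switch 3, 4 or 7 (adjusted p 0.0503 to 0.0603), and without diet switch 3, 4 and 7 together neither Col6a1 (-0.58, 0.309) nor Col6a2 (-0.51, 0.223) passed. With tirzepatide Col6a2 (-0.90 ± 0.23, adjusted p = 0.00493) and Col6a3 (-0.60 ± 0.17, adjusted p = 0.00810) were lower than on HFD, and Col6a1 stood at -0.83 ± 0.32 (adjusted p = 0.0576). With semaglutide none of the 3 passed by edgeR over all libraries (-0.66, -0.73 and -0.43 for Col6a1, Col6a2 and Col6a3). Col6a2 was called lower there by DESeq2 (adjusted p = 0.0271), by limma-voom (0.0110) and in a fit of the 16 libraries alone (0.00653), Col6a1 in that fit (0.0354) and Col6a3 by limma-voom (0.0434). For Col6a1 with tirzepatide DESeq2 (0.0406) and limma-voom (0.00498) made the call that the main edgeR fit did not. EdgeR also made it with the replicate number as a block (0.0473) and with the GC trend removed (0.0367). It did so too without the muscle-high libraries (0.0421), the B cell-high libraries (0.0479) or diet switch 3, 4 and 7 (0.0361). Relative to ND, Col6a3 was higher after the diet switch (0.59 ± 0.17, adjusted p = 0.0131), and not without diet switch 3, 4 and 7 (0.66, adjusted p = 0.0577). Col6a6, a chain that can take the place of Col6a3, had 1.10, 4.65 and 9.86 CPM with tirzepatide, 1.79, 2.51 and 6.38 with semaglutide, 1.31, 4.79 and 9.22 after the diet switch, 1.17, 3.81 and 4.41 on HFD, and 1.92, 3.36 and 7.54 on ND, and did not pass in any comparison.

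The ratio of counts between chains that join in the same trimers varied across groups. The ratios were computed after the fold changes were known and are given as a description, with no test. A ratio of transcript ends is no ratio of protein chains. The Col1a1 to Col1a2 ratio had lowest, median and highest values of 0.329, 0.413 and 0.678 with tirzepatide, 0.452, 0.765 and 0.971 with semaglutide, 0.255, 0.355 and 0.567 after the diet switch, 0.469, 0.787 and 1.59 on HFD, and 0.433, 0.621 and 1.3999 on ND. Of the 8 diet-switch libraries 6 lay below every semaglutide, HFD and ND library. The Col4a1 to Col4a2 ratio was 0.914, 1.47 and 2.30 with tirzepatide, 1.34, 1.64 and 1.82 with semaglutide, 1.57, 2.10 and 2.64 after the diet switch, 1.17, 1.34 and 1.61 on HFD, and 1.19, 1.44 and 1.62 on ND. Diet-switch libraries were the highest as a group and just overlapped HFD, while tirzepatide libraries ran across nearly the whole range. The Col6a3 to Col6a2 ratio was 0.529, 1.09 and 1.78 with tirzepatide, 0.928, 1.01 and 1.18 with semaglutide, 1.18, 1.62 and 2.37 after the diet switch, 0.680, 0.830 and 1.19 on HFD, and 0.572, 0.799 and 1.22 on ND. Again the diet-switch group was highest and met the HFD range at its edge. The Col6a1 to Col6a2 ratio kept medians of 1.35 with tirzepatide, 1.53 with semaglutide, 1.24 after the diet switch, 1.39 on HFD and 1.44 on ND.

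**Figure D4:**
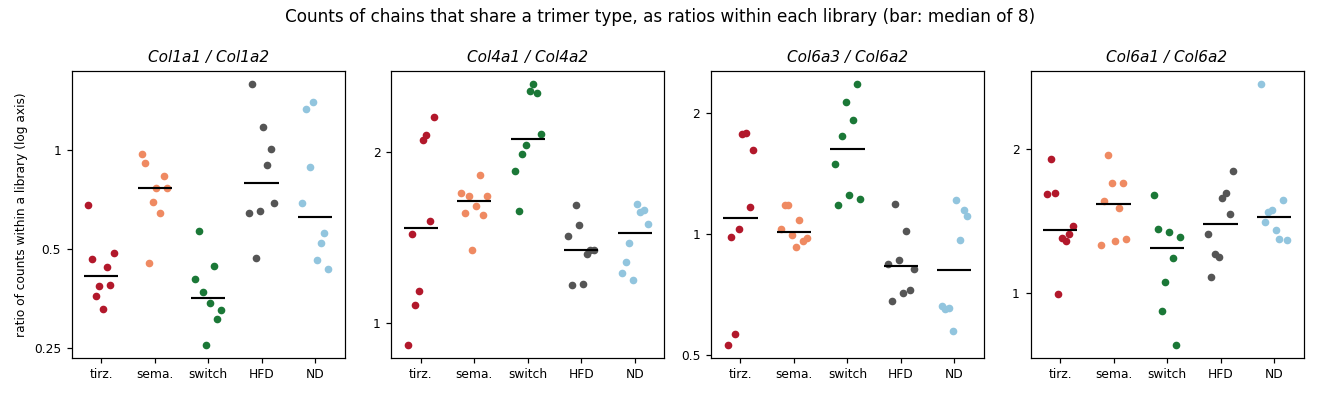
Ratio of the counts of 2 collagen chains within each of the 40 libraries (y axes, logarithmic), by group (x axes), with each point a library and each bar the median of 8. Median Col4a1 to Col4a2 ratios were 1.47 with tirzepatide, 1.64 with semaglutide, 2.10 after the diet switch, 1.34 on HFD and 1.44 on ND.

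Tirzepatide and semaglutide did not separate for any collagen gene by edgeR. Of 25 members 0 were higher and 0 lower with tirzepatide than with semaglutide, where 4.11% of all genes were higher and 5.92% lower. At an unadjusted p under 0.05, 3 members were higher and 2 lower. DESeq2 called 1 (Col12a1, lower, adjusted p = 0.0459), and limma-voom with quality weights called 3 (Col5a2 and Col12a1 lower, Col27a1 higher). The 95% interval of the difference was -0.56 to 0.08 for Col4a1, -0.48 to 0.21 for Col4a2, -0.30 to 0.39 for Col3a1, and -0.67 to 0.21 for Col15a1. For 17 of the 25 members the interval lay within 1 log2 unit on either side of no difference. Col12a1 (-2.03 to -0.25), Col5a2 (-0.73 to -0.08), Col27a1 (0.13 to 1.21), Col1a2 (0.13 to 1.23) and Col6a6 (0.02 to 1.57) had intervals on 1 side of 0 and adjusted p-values of 0.0831 to 0.172. Leaving out semaglutide 1 called Col5a2, leaving out semaglutide 4 called Col27a1, and leaving out tirzepatide 2 called Col5a2 and Col12a1. The labels give no doses.

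**Figure D5:**
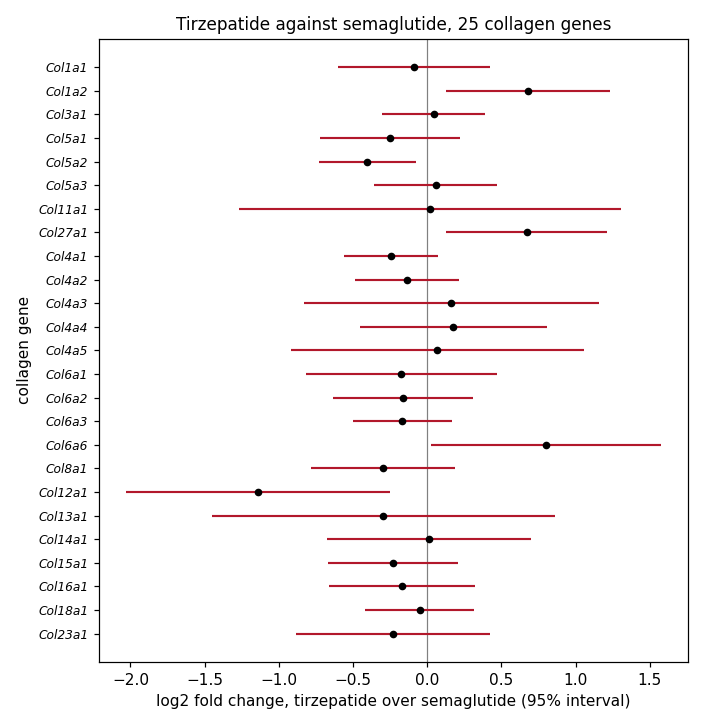
Log2 fold change of each of the 25 tested collagen genes with tirzepatide over semaglutide (x axis; points, with lines for the 95% interval), by gene (y axis). Most intervals cross 0, and 17 lie within 1 log2 unit of it on either side.

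Col3a1, Col4a1 and Col6a3 were lower with either drug than after the diet switch. With semaglutide 5 members were lower and 0 higher than after the diet switch, against 7.00% and 6.29% of all genes, and at an unadjusted p under 0.05 there were 8 lower and 2 higher. DESeq2 and limma-voom each called 1 member higher (Col16a1). The 5 were Col1a2 (-1.54 ± 0.28, adjusted p = 2.60e-04), Col27a1 (-1.22 ± 0.27, adjusted p = 0.00210), Col3a1 (-0.89 ± 0.17, adjusted p = 4.87e-04), Col6a3 (-0.62 ± 0.17, adjusted p = 0.0106) and Col4a1 (-0.54 ± 0.16, adjusted p = 0.0176). With tirzepatide 3 were lower and 0 higher, against 0.285% and 0.114% of all genes, and at an unadjusted p under 0.05 there were 9 lower and 1 higher, and DESeq2 and limma-voom called 0 higher. The 3 were Col3a1 (-0.85 ± 0.17, adjusted p = 0.00619), Col6a3 (-0.78 ± 0.17, adjusted p = 0.0102) and Col4a1 (-0.78 ± 0.16, adjusted p = 0.00635). For Col3a1 every tirzepatide and every semaglutide library lay below the diet-switch median. The tirzepatide count was 0 in a fit of these 16 libraries alone. There the log2 fold changes were -0.86 for Col3a1 (adjusted p = 0.125), -0.79 for Col4a1 (0.125) and -0.79 for Col6a3 (0.148). The count was also 0 without the muscle-high libraries, at -1.06, -0.57 and -0.95 for the same genes. It was 6 without diet switch 3, 4 and 7, where Col1a1, Col1a2 and Col5a2 also passed as lower. The share of all genes called in these fits is not given here, so their counts alone are no result about collagens. With semaglutide the Col4a1 call ended without the muscle-high libraries (-0.56, adjusted p = 0.0645) or without diet switch 3, 4 and 7 (-0.58, 0.0743), and the Col6a3 call without the B cell-high libraries (-0.52, 0.0523).

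Against HFD, 10.7% of all genes were lower with tirzepatide, 2.62% with semaglutide and 10.9% after the diet switch, and 9.79%, 1.51% and 12.8% were higher, the background of the list counts here. Several genes that fold, secrete and cross-link collagen were lower than on HFD with tirzepatide and after the diet switch, and none of these 2 lists was higher. Of 20 tested folding and modification genes 5 were lower and 0 higher with tirzepatide than on HFD, 2 and 0 with semaglutide, and 6 and 0 after the diet switch. Serpinh1, the collagen-specific chaperone, had 122, 137 and 180.0 CPM with tirzepatide, 144, 222 and 261 with semaglutide, 85.4, 186 and 367 after the diet switch, 184, 339.6 and 454 on HFD, and 116, 258 and 465 on ND. All 8 tirzepatide libraries lay below every HFD library for Serpinh1. Its log2 fold change relative to HFD was -1.28 ± 0.23 (adjusted p = 7.94e-05) with tirzepatide and -0.69 ± 0.22 (adjusted p = 0.0208) after the diet switch. Sec23a, a coat protein of the vesicles that carry procollagen, was -0.86 ± 0.18 (adjusted p = 5.82e-04) with tirzepatide and -0.76 ± 0.18 (adjusted p = 0.00176) after the diet switch. Plod3, a lysyl hydroxylase, was lower in all 3 (-0.73 with tirzepatide, -0.87 with semaglutide and -0.66 after the diet switch). Its relative Plod2 was higher than on ND in all 3 (1.12 with tirzepatide, 1.16 with semaglutide and 1.53 after the diet switch). Plod2 medians were 7.40 CPM with tirzepatide, 8.20 with semaglutide, 9.23 after the diet switch, 6.44 on HFD and 3.53 on ND.

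Of 10 tested processing and crosslinking genes 3 were lower and 0 higher with tirzepatide than on HFD, 0 and 0 with semaglutide, and 3 and 0 after the diet switch. These were Loxl2, an oxidase that cross-links type IV collagen (-1.29 with tirzepatide and -0.55 after the diet switch), Adamts2, which trims procollagen (-0.76 with tirzepatide and -0.54 after the diet switch), and Pcolce2, which aids that trimming (-1.01 with tirzepatide and -1.24 after the diet switch). Loxl2 was also lower with tirzepatide than with semaglutide (-0.63 ± 0.21, adjusted p = 0.0447). Of 8 tested collagen receptors 1 was lower with tirzepatide, a share near that of all genes, and 3 after the diet switch, and none was higher. Itgb1, the shared beta chain of the collagen-binding integrins, was -0.85 ± 0.17 (adjusted p = 3.56e-04) with tirzepatide and -0.92 ± 0.17 (adjusted p = 1.22e-04) after the diet switch. Ddr1, a receptor kinase for collagen, and Itga11, an integrin chain, were lower after the diet switch (-0.84 and -1.0004). Itga1, an integrin chain that binds type IV collagen, was higher than on ND with tirzepatide (0.74) and after the diet switch (0.89). Its medians were 168 CPM with tirzepatide, 167 after the diet switch, 126 on HFD and 89.1 on ND.

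Of 11 tested genes of collagen breakdown and its inhibitors 1 was lower and 1 higher with tirzepatide than on HFD, 1 and 0 with semaglutide, and 1 and 2 after the diet switch, shares near those of all genes with tirzepatide. The lower gene was Mrc2 in all 3. Mrc2 is an endocytic receptor that takes up cleaved collagen. It had 2.67, 5.92 and 8.31 CPM with tirzepatide, 4.20, 11.1 and 17.6 with semaglutide, 3.11, 5.29 and 12.5 after the diet switch, 15.99, 24.4 and 43.8 on HFD, and 2.84, 9.25 and 19.1 on ND. All 8 tirzepatide and all 8 diet-switch libraries lay below every HFD library. The log2 fold change was 1.46 ± 0.28 (adjusted p = 5.21e-04) on HFD against ND. Relative to HFD it was -2.27 ± 0.29 (adjusted p = 3.03e-07) with tirzepatide, -1.32 ± 0.28 (adjusted p = 0.00219) with semaglutide, and -2.09 ± 0.29 (adjusted p = 1.53e-06) after the diet switch. Timp4, an inhibitor of matrix proteases, moved the other way, with -1.37 on HFD against ND, 1.17 with tirzepatide and 1.06 after the diet switch against HFD. Mmp3, a matrix protease, was higher after the diet switch than on HFD (0.88), and Timp1, another inhibitor, was higher after it than on ND (1.73). Timp1 medians were 9.24 CPM after the diet switch, 8.71 on HFD and 4.16 on ND.

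Of the 11 basement membrane partners 6 were lower with tirzepatide than on HFD, 1 with semaglutide and 4 after the diet switch, where 1 was higher. Sparc, which binds collagen, had 2225, 3535 and 5141 CPM with tirzepatide, 1807, 3991 and 5675 with semaglutide, 3978, 4258 and 6658 after the diet switch, 5769.8, 7254 and 8352 on HFD, and 1603, 4979 and 6231 on ND. It was lower in all 3 groups than on HFD (-0.96 with tirzepatide, -0.87 with semaglutide and -0.60 after the diet switch). Hspg2 (perlecan) was higher on HFD than on ND (0.69) and lower than on HFD with tirzepatide (-0.58) and after the diet switch (-0.83). Pxdn, which cross-links type IV collagen, was lower in the same 2 groups (-0.65 and -0.57). Lamc1, a laminin chain, was lower with tirzepatide than in each other group (-0.53 against semaglutide, -0.72 against the diet switch, -0.78 against HFD and -0.73 against ND).

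Of 6 fibril-binding proteoglycans 2 were lower with tirzepatide than on HFD, 0 with semaglutide and 2 after the diet switch, where 2 were higher. Prelp, an anchor between basement membrane and fibrils, was 1.45 ± 0.24 (adjusted p = 6.04e-05) on HFD against ND, and relative to HFD -1.43 with tirzepatide and -1.59 after the diet switch. Bgn (biglycan) was lower in the same 2 groups (-0.72 and -1.04), while Dcn (decorin) and Lum (lumican) were higher after the diet switch (0.71 and 0.68). TGF-beta signalling is a pathway that induces collagen transcription. Its target Ccn2 and the ligand Tgfb3 were lower than on HFD with tirzepatide (-2.05 and -1.04) and after the diet switch (-1.28 and -0.84). Between the drugs, Ccn2 (-1.63), Tgfb3 (-0.89), Mrc2 (-0.95) and Prelp (-0.83) were lower with tirzepatide than with semaglutide. Of the 11 tested genes of collagen breakdown and its inhibitors, which include Mrc2, 2 were higher and 1 lower in this comparison. Of all genes 4.11% were higher and 5.92% lower in it. The receptor Tgfbr1 was higher with semaglutide than on HFD (0.67).

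Markers of the cells that make collagens passed in part. Of 6 adipocyte markers 2 were lower than on HFD with tirzepatide (Cidec, -0.96, and Fabp4, -0.74), 1 with semaglutide (Cidec, -0.96) and 1 after the diet switch (Cidec, -1.18). Of 5 macrophage markers 1 was lower after the diet switch (Lyz2, -0.62) and 0 passed by edgeR with either drug. Adipocyte markers ranged over 12736 to 18154 summed CPM with tirzepatide, 10439 to 20139.6 with semaglutide, 11079 to 18795 after the diet switch, 16245 to 22444 on HFD and 8131 to 17045 on ND. Of 7 endothelial markers 0 passed with tirzepatide against HFD, 1 was lower with semaglutide (Cldn5, -0.99) and 3 were lower after the diet switch (Pecam1, Tie1 and Vwf). Their summed CPM ranged over 489.9 to 751 with tirzepatide, 407 to 606 with semaglutide, 409.9 to 638 after the diet switch, 573 to 761 on HFD and 401 to 568 on ND. Cldn5 and Cdh5 were higher on HFD than on ND (0.67 and 0.63). The part of these cells in the type IV results was not tested. Of 6 mural cell markers 1 was lower with tirzepatide (Acta2, -1.67), 2 with semaglutide (Myh11 and Cspg4) and 2 after the diet switch, and their summed CPM ranged over 377 to 572 with tirzepatide, 318 to 858 with semaglutide, 445 to 765 after the diet switch, 742 to 1113 on HFD and 332 to 1292 on ND. Of 7 fibroblast and progenitor markers 1 was higher with tirzepatide than on HFD (Pdgfra, 0.50), 0 passed with semaglutide, and after the diet switch Pdgfra (0.89) and Dpt (0.62) were higher and Dpp4 (-1.07) lower. Their summed CPM ranged over 957 to 1638 with tirzepatide, 676 to 1337 with semaglutide, 1169 to 1918 after the diet switch, 944 to 1802 on HFD and 695 to 1535 on ND. The part of adipocytes, macrophages, mural cells and fibroblasts in the results was not tested.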

How the data were processed

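RNA of 40 mouse sWAT samples was extracted with Nucleozol, made into Lexogen QuantSeq 3′ libraries and sequenced on an Illumina HiSeq, per the labels' protocols. The authors deposited raw counts per gene symbol, and mm10 is named in the submitters' processing notes. Which aligner, counter and annotation were used was not given in the sources used here. A normalized table holds the same counts divided by a factor per library and was not used, nor were its 16 columns that match no sample. Levels are CPM after TMM scaling. All 40 libraries were fitted together by edgeR's quasi-likelihood test (edgeR 4.0.16, R 4.3.3) on 15807 genes passing filterByExpr, with Benjamini-Hochberg adjustment over them and a call at 0.05. This is the main fit. Fold changes are log2 values ± standard error. Counts limit precision at low levels, and intervals cover the spread between these libraries. The pipeline was tested on simulated data. Levels in all groups are printed for the 5 given markers and, per class, for at most 6 members, taken by lowest adjusted p over the 5 groups; up to 4 genes of each pathway list are named likewise. The members and lists were chosen with earlier results of these data known. Alternatives used DESeq2 1.42.0, limma 3.58.1, other filters, scalings and subsets of libraries. The GC correction and the fit without diet switch 1 and 2 were added after seeing the data. Some items of the pathway and marker lists, and the counts over those lists, are not reported here.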

Additional observations from a re-analysis of the deposited data

Results flagged for a closer look

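In 110 groups of 8 libraries screened, 16 held a library whose gap to its nearest neighbour was a large part of the group's range. Chance flags about 1 in 20 groups where they are independent and log levels are normal. The groups here are genes measured in the same libraries, and ND 5 and semaglutide 1 recur, so 16 is no measure of an excess over chance. ND 5, a library with high B cell markers, was the lowest ND library for 8 genes. Its levels were 897 CPM for Col3a1, 354 for Col4a1, 219 for Col4a2, 168 for Col6a3, 119 for Col5a3, 69.1 for Col5a2, 77.3 for Col15a1 and 36.4 for Col18a1. Semaglutide 1, also high in B cell markers, was the lowest of its group at 68.6 CPM for Col5a2 and 239 for Col6a1. The part of these markers in the low values was not tested. On HFD, Col3a1 was lowest in HFD 2 at 1293 CPM, Col4a1 in HFD 8 at 788 and Col5a1 in HFD 3 at 226. Col6a6 stood apart at 6.38 CPM in semaglutide 2, the highest of its group, and at 1.10 CPM in tirzepatide 8, the lowest of its group. Col16a1 was highest after the diet switch in diet switch 2, at 28.2 CPM.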

How the results depend on the processing

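Across 750 alternative values of the 50 called gene and comparison pairs 0 reversed and 92 lost the call. Of the leave-one-out fits these values held only the lowest and the highest fold of each pair. Leaving out a single library ended the call of 10 pairs. Only 23 of the 50 pairs kept the call under every alternative other than the 1.5-fold test. With a test against a 1.5-fold change the number of collagen genes called fell to 4 with tirzepatide, 0 with semaglutide and 2 after the diet switch against HFD, to 0 with each of the 3 against ND, to 0 for HFD against ND, to 1 for semaglutide and 0 for tirzepatide against the diet switch. In a fit of only the groups compared it was 2 for HFD against ND, 9 for semaglutide against HFD, 1 for semaglutide against ND and 0 for tirzepatide against the diet switch. Limma-voom with quality weights called 2 for HFD against ND, 9 for semaglutide against HFD and 3 for tirzepatide against semaglutide, where DESeq2 called 1. Without the 11 muscle-high libraries it was 2 for HFD against ND, 2 for tirzepatide against ND and 0 for tirzepatide against the diet switch. Without diet switch 3, 4 and 7 it was 4 for the diet switch against HFD (2 lower and 2 higher), 1 for the diet switch against ND and 6 for tirzepatide against the diet switch. Without the 4 B cell-high libraries it was 9 for the diet switch against ND, and in 2 alternatives chosen after seeing the data it was 1 for semaglutide against ND with the GC trend removed, and 8 for the diet switch against ND without diet switch 1 and 2, which ended no call. The causes were not tested. The share of all genes called in each alternative fit is not given here, so these counts alone are no result about collagens.

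Leaving out each library in turn gave 12 to 14 with tirzepatide, 4 to 6 with semaglutide and 9 to 12 after the diet switch against HFD. Against ND it gave 4 to 8 with tirzepatide, 1 to 4 with semaglutide, 3 to 9 after the diet switch and 1 to 2 on HFD. It gave 0 to 2 for tirzepatide against semaglutide, 5 to 6 for semaglutide and 3 to 4 for tirzepatide against the diet switch, and 13 to 17 in the test over the 5 groups. Samples with the same replicate number had a mean correlation of 0.029 over all genes (80 pairs, 18 of them over 0.1). Other pairs between groups averaged -0.004. On the leading within-group axis, however, replicates 1 and 2 of all 5 groups lay on the side of diet switch 1 and 2. Replicate 1 ran from -59.2 (diet switch) to -7.15 (HFD) and replicate 2 from -50.7 (diet switch) to -10.2 (ND). The GC trend was positive in each of these libraries. The source of this shared pattern was not tested. With the replicate number as a block, 13 members were called for tirzepatide against HFD and 6 for semaglutide against the diet switch, in place of 12 and 5, and the other pairwise counts did not move. Members under about 2 CPM hold few counts, and whether they were called varied with the tool (Col11a1 and Col13a1).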
